A study of Mus musculus with 11 samples.

Results

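The genes described here are 9 genes associated with monocytes and other myeloid cells, read on arrays of classical dendritic cells (cDCs) from mouse spleen. They are the lysozyme genes Lyz2 and Lyz1, the CSF1 receptor gene Csf1r, the adhesion receptor genes Adgre1, Adgre4 and Adgre5, the membrane protein gene Ms4a4c and the enzyme genes Pla2g7 and Mmp12. They were chosen by name with their log2 differences between these groups and array sets known, so those values are a description, and no p-value is printed for their differences between groups. Each was read by 1 of the 9 probe sets that name a member, and together they are 9 of 19938 genes tested.

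The 3 groups of cells from C57BL/6 mice, sorted by flow cytometry, were compared on 11 arrays. CD172a+ cDCs labelled Zeb2-deficient (4 arrays) came from Zeb2(fl/fl);CD11c-Cre(tg) mice, in which Cre recombinase is driven by the promoter of the CD11c gene. CD24+ cDCs (3 arrays) and CD172a+ cDCs (4 arrays) of control mice carried Zeb2(fl/fl) and no Cre. The floxed allele was thus common to all groups, and an effect of the Cre transgene itself cannot be told apart from an effect of losing Zeb2. Zeb2, a zinc-finger transcriptional repressor, is the targeted gene. Its probe set read 8.52, 8.32, 9.07 and 9.24 (log2) in CD172a+ cDCs labelled Zeb2-deficient, against 8.23, 8.23, 8.26 and 8.61 in control CD172a+ cDCs. The mean reading was therefore not lower but higher in the group labelled Zeb2-deficient (8.79 against 8.33), with ranges that overlapped. Whether this probe set covers the deleted part was not tested. Nothing in the labels says that replicates were separate animals, so p-values measure spread among these samples that may be technical.

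All values are log2 expression made with RMA, which shrinks differences near background. The median over all genes and arrays was 5.51, so a group mean near or below it lies in the range where folds are compressed. The second principal component, with 34.2% of the variance, split the arrays into a first set (CD172a+ replicates 1 and 2, CD24+ replicate 1) and a second set (CD172a+ replicates 3 and 4, CD24+ replicates 2 and 3). For CD172a+ arrays the sets were fixed by replicate number, and this component was picked because it separated those replicates most widely. Only the CD24+ arrays were placed by their score on it. The labels name no batch. The sets cross the groups, so values are also given within them. The sorted identity was read on marker lists, of which the cDC2 list includes Sirpa, the gene of the sorting marker CD172a. The mean log2 value of 7 pan-cDC markers lay between 10.18 and 10.94 on every array. The mean of 8 cDC2 markers was 7.92 to 8.87 in CD172a+ cDCs labelled Zeb2-deficient, 5.02 to 5.35 in control CD24+ cDCs and 7.91 to 8.77 in control CD172a+ cDCs. The mean of 8 cDC1 markers was 6.33 to 6.39, 9.73 to 10.34 and 6.20 to 6.51 in the same order of groups. Of 11 neutrophil markers, 0 had a group mean above the overall median in any group.

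As background, monocytes and macrophages depend on signalling through CSF1R, a receptor tyrosine kinase whose ligands are CSF1 and interleukin-34, and they secrete lysozyme, which cleaves bacterial cell walls. CD172a+ cDCs are the cDC2 subset and CD24+ cDCs the cDC1 subset, and cDC2 share part of their genes with monocytes. The mouse carries neighbouring lysozyme genes. Lyz2 (also called M lysozyme) is the form of macrophages, monocytes and neutrophils, and its locus is used to drive Cre in myeloid cells; Lyz1 (P lysozyme) is best known from the Paneth cells of the gut.

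The sequences before the start sites of Lyz2 and Lyz1 are shown because the genes are neighbours on chromosome 10 yet behaved differently across the arrays. RefSeq promoter entries of GRCm38.p6 were found for Lyz2, Lyz1, Adgre4, Ms4a4c, Pla2g7 and Mmp12. The 250 bases before the start lie at chr10:117282273-117282522 for Lyz2 and at chr10:117292869-117293118 for Lyz1, both on the minus strand, written 5′ to 3′ as transcribed. Capitals mark bases that are mismatched or stand opposite a gap in a global alignment of the pair.
Lyz2: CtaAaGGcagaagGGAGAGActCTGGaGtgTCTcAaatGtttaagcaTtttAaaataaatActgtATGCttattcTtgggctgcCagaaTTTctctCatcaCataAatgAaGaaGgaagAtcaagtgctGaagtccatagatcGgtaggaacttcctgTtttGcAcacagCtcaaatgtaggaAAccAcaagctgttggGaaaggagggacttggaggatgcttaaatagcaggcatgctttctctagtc
Lyz1: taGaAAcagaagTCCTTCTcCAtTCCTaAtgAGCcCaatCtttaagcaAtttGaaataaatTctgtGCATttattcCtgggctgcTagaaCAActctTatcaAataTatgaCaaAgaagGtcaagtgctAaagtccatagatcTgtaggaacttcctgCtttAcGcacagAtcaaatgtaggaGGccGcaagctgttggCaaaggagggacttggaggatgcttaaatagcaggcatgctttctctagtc
Of 252 aligned columns, 200 were identical (79.4%), 48 were mismatched and 4 were gapped. The 50 bases next to the start were identical in both genes, and 92 of the nearest 100 were. The genes are near-identical copies, and how much of the signal of each probe set comes from RNA of the other gene was not tested.

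Of the members, 1 was lower past the threshold (limma, adjusted p below 0.05 over all genes) in CD172a+ cDCs labelled Zeb2-deficient than in control CD172a+ cDCs, and that member was Lyz2. The share of all genes called in this comparison was 0.0502%, or 10 genes, of which 2 were lower (0.0100%). The comparison asks how these genes differ when CD172a+ cDCs develop with a floxed Zeb2 and CD11c-Cre. Of the 9 members, 7 had a negative difference, against 48.5% of all genes. The median of the members was -0.66 log2, against 0.0056 over all genes. In 3 members (Lyz2, Csf1r and Pla2g7) the 4 arrays labelled Zeb2-deficient all lay below the 4 control arrays, a separation in either direction seen in 2.10% of all genes. With the array set as a block, Lyz2, Csf1r and Pla2g7 were called, or 3 of 9, where 0.145% of all genes were. With each of the 11 arrays left out in turn, Lyz2 was called every time. Csf1r was called beside it only without replicate 3 of the arrays labelled Zeb2-deficient. The share of all genes called in those fits is not given here. Within the first array set alone 0 members and 0 of all genes were called. Within the second set alone Lyz1 was the member called, where 0.0351% of all genes were.

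In control CD24+ cDCs, 6 of the 9 members were lower past the same threshold than in control CD172a+ cDCs: Csf1r, Adgre1, Adgre4, Ms4a4c, Pla2g7 and Mmp12. The share of all genes called was 6.41%, with 3.16% lower. The median difference of the members was -2.71 log2, against -0.02 over all genes. In these 6 members no array of the groups overlapped, which held for 14.6% of all genes. With CD172a+ cDCs labelled Zeb2-deficient set against CD24+ control cDCs, the same 6 were called higher and Lyz2 was called lower, where 7.17% of all genes were called in either direction. These 3 comparisons share arrays, and the members' values in each are given side by side below. In bulk samples, fewer cells that express a gene and less of its RNA per cell cannot be told apart.

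**Figure D1:**
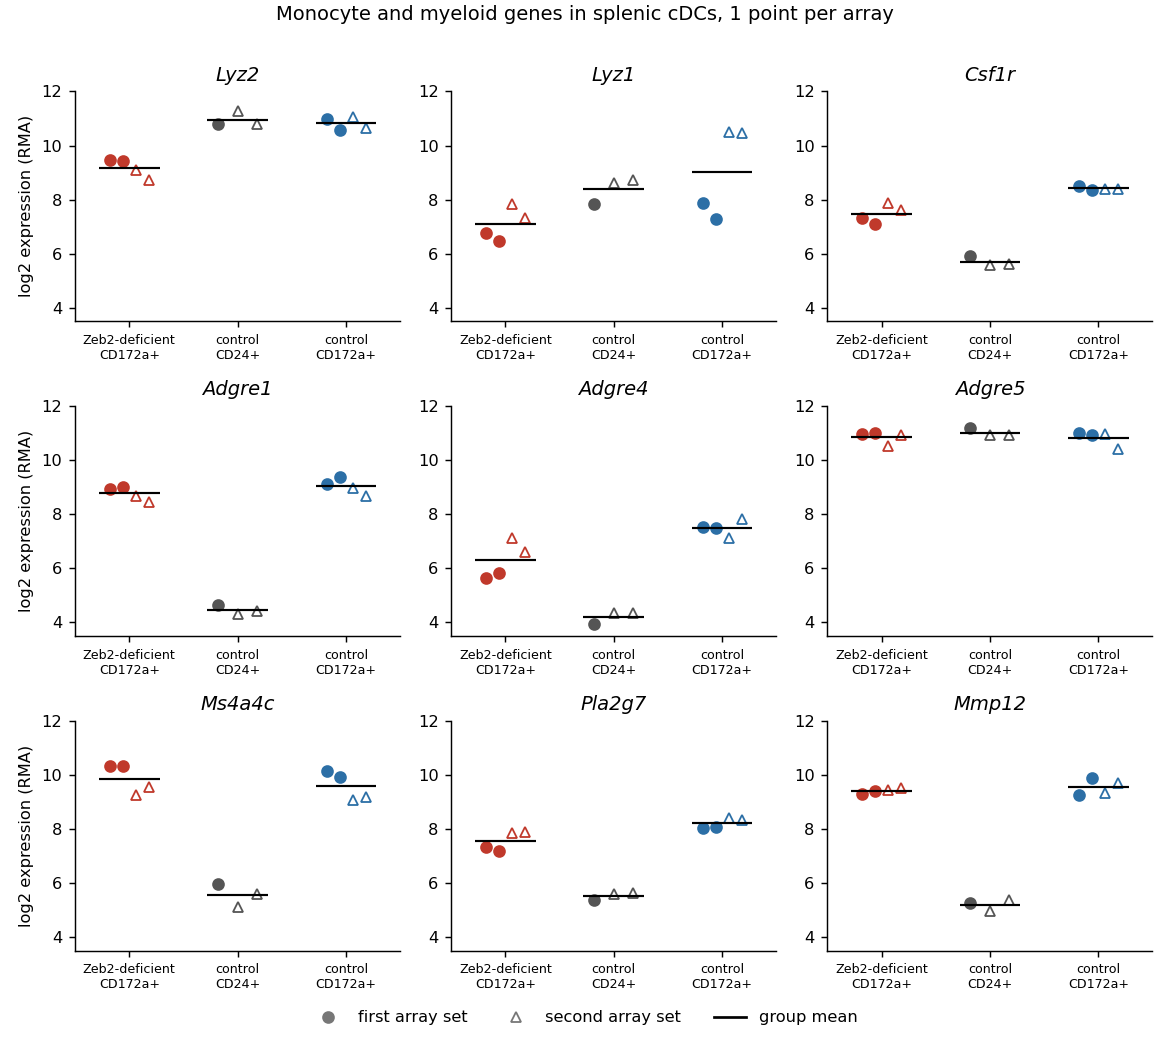
Log2 expression (RMA) of the 9 genes on each of 11 arrays, with CD172a+ cDCs labelled Zeb2-deficient on the left, control CD24+ cDCs in the middle and control CD172a+ cDCs on the right. Filled circles are arrays of the first set, open triangles those of the second set, and bars are group means. Lyz2 is lowest on the arrays labelled Zeb2-deficient, whereas Csf1r, Adgre1, Adgre4, Ms4a4c, Pla2g7 and Mmp12 are lowest on the CD24+ arrays.

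Lyz2, the lysozyme of phagocytes, was the member called by genotype over all arrays. Its probe set read 9.46, 9.41, 9.08 and 8.72 in CD172a+ cDCs labelled Zeb2-deficient, 10.81, 11.29 and 10.79 in control CD24+ cDCs, and 10.98, 10.59, 11.06 and 10.65 in control CD172a+ cDCs. Every array labelled Zeb2-deficient lay below every control array of either subset, while the control subsets overlapped. The means were 9.17 ± 0.34 (SD, n = 4) in the CD172a+ cDCs labelled Zeb2-deficient, 10.96 ± 0.28 (SD, n = 3) in control CD24+ cDCs and 10.82 ± 0.23 (SD, n = 4) in control CD172a+ cDCs. The difference of CD172a+ cDCs labelled Zeb2-deficient from control CD172a+ cDCs was -1.66 (SE 0.187, 95% interval -2.07 to -1.24), or 3.15-fold lower. It was -1.36 within the first array set and -1.96 within the second, and it was called in neither set alone. Between the control subsets Lyz2 was not called, and CD24+ minus CD172a+ cDCs gave 0.14 (SE 0.202, 95% interval -0.31 to 0.59). Against control CD24+ cDCs, the difference of CD172a+ cDCs labelled Zeb2-deficient was -1.80 (SE 0.202), or 3.47-fold lower.

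Lyz1 read higher in the second array set than in the first in all 3 groups. It read 6.75, 6.48, 7.82 and 7.32 in CD172a+ cDCs labelled Zeb2-deficient, 7.82, 8.63 and 8.73 in control CD24+ cDCs, and 7.86, 7.27, 10.49 and 10.46 in control CD172a+ cDCs. The control CD172a+ arrays of the second set stood far above those of the first, and the ranges of the CD172a+ groups overlapped. The means were 7.09 ± 0.60 (SD, n = 4) in the CD172a+ cDCs labelled Zeb2-deficient, 8.40 ± 0.50 (SD, n = 3) in control CD24+ cDCs and 9.02 ± 1.70 (SD, n = 4) in control CD172a+ cDCs. The second set minus the first was 0.95 in CD172a+ cDCs labelled Zeb2-deficient, 0.86 in control CD24+ cDCs and 2.91 in control CD172a+ cDCs. The difference of CD172a+ cDCs labelled Zeb2-deficient from control CD172a+ cDCs was -1.93 over all arrays (SE 0.688, 95% interval -3.45 to -0.41), and it was not called. It was -0.95 within the first set and -2.91 within the second, where Lyz1 was the 1 member called among 0.0351% of all genes. For CD24+ minus control CD172a+ cDCs the difference was 0.26 within the first set and -1.79 within the second. The first of these rests on 1 CD24+ array (7.82), which lay between the control CD172a+ arrays of that set (7.86 and 7.27).

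Markers of splenic macrophages moved with the array set too. By first and second set, the mean log2 value of 15 such markers was 5.31 and 6.54 in CD172a+ cDCs labelled Zeb2-deficient, 5.23 and 5.90 in control CD24+ cDCs, and 5.33 and 6.60 in control CD172a+ cDCs. Over single arrays it ranged from 5.29 to 6.64 in CD172a+ cDCs labelled Zeb2-deficient, from 5.23 to 5.94 in control CD24+ cDCs and from 5.27 to 6.62 in control CD172a+ cDCs. The number of these markers with a group mean above the overall median was 8 of 15, 6 of 15 and 8 of 15 in the same order of groups. Within the second set this mean was 6.54 in CD172a+ cDCs labelled Zeb2-deficient and 6.60 in control CD172a+ cDCs. Lyz1 averaged 7.57 and 10.47 in the same order. The part of these cells in the Lyz1 values was not tested.

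**Figure D2:**
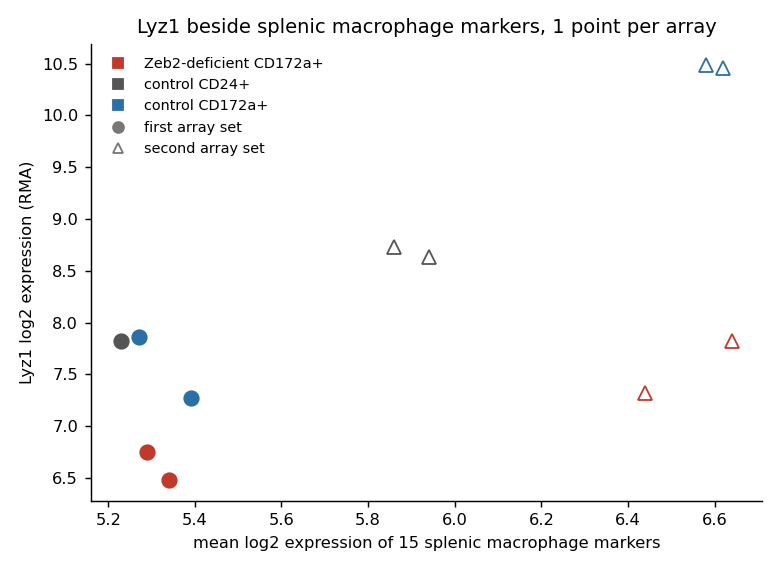
Lyz1 log2 expression (RMA, vertical axis) against the mean log2 expression of 15 splenic macrophage markers (horizontal axis), 1 point per array, coloured by group, with filled circles for the first array set and open triangles for the second. The control CD172a+ arrays of the second set read 10.49 and 10.46 for Lyz1, and the arrays labelled Zeb2-deficient of that set read 7.82 and 7.32.

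Csf1r was highest in control CD172a+ cDCs, intermediate in those labelled Zeb2-deficient and lowest in CD24+ cDCs. It read 7.32, 7.10, 7.88 and 7.60 in CD172a+ cDCs labelled Zeb2-deficient, 5.93, 5.57 and 5.62 in control CD24+ cDCs, and 8.50, 8.37, 8.38 and 8.40 in control CD172a+ cDCs. No array of one group overlapped with another group. The means were 7.47 ± 0.34 (SD, n = 4) in the CD172a+ cDCs labelled Zeb2-deficient, 5.70 ± 0.20 (SD, n = 3) in control CD24+ cDCs and 8.42 ± 0.06 (SD, n = 4) in control CD172a+ cDCs. The difference of CD172a+ cDCs labelled Zeb2-deficient from control CD172a+ cDCs was -0.94 (SE 0.155, 95% interval -1.28 to -0.60), which was not called over all arrays and was called with the array set as a block. The difference was -1.23 within the first set and -0.65 within the second. CD24+ minus CD172a+ control cDCs gave -2.71 (SE 0.167), or 6.56-fold lower.

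The genes of the CSF1R axis were read as a list of 14 measured genes (ligands, adaptors and transcription factors of the myeloid lineage). None was called between CD172a+ cDCs labelled Zeb2-deficient and control CD172a+ cDCs in limma, with 2 of 14 at an unadjusted p below 0.05, where 3.88% of all genes lay in this comparison. Runx1, a core-binding transcription factor of blood cell development, had the smallest p, with a difference of -0.46 (8.20 ± 0.19 in CD172a+ cDCs labelled Zeb2-deficient and 8.65 ± 0.05 in control CD172a+ cDCs, SD, n = 4 each; adjusted p = 0.637). Csf1, a ligand of the receptor, differed by -0.26 and Ets2, an ETS transcription factor, by -0.55 (adjusted p = 0.998 for each). Between control CD24+ and control CD172a+ cDCs, 0 rose and 3 fell, where 3.25% of all genes were called higher and 3.16% lower. Csf1 fell by 0.55 (adjusted p = 0.0189), Cebpb, a transcription factor of monocytes and granulocytes, fell by 0.68 (adjusted p = 0.0312), and Tyrobp, the DAP12 signalling adaptor, fell by 0.49 (adjusted p = 0.0447).

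The Adgre genes encode adhesion G protein-coupled receptors with epidermal growth factor-like repeats. Adgre1 encodes the classical surface marker of mouse macrophages; Adgre4 (FIRE) is expressed by myeloid cells of the mouse; Adgre5 encodes CD97, a broadly expressed receptor of leukocytes that binds CD55. The 3 genes gave 3 patterns. Adgre1 separated the subsets and differed little by genotype, Adgre4 was graded over the 3 groups, and Adgre5 was high throughout.

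Adgre1 read 8.94, 9.02, 8.66 and 8.44 in CD172a+ cDCs labelled Zeb2-deficient, 4.65, 4.30 and 4.44 in control CD24+ cDCs, and 9.10, 9.38, 8.98 and 8.66 in control CD172a+ cDCs. The CD172a+ groups overlapped, and the CD24+ arrays lay far below both. CD24+ minus CD172a+ control cDCs gave -4.57 (SE 0.185, 95% interval -4.97 to -4.16), or 23.7-fold lower on the array's scale. Its CD24+ mean of 4.46 ± 0.18 (SD, n = 3) lay below the overall median, so the size of this fold depends on the probe set's background level, as it does for Adgre4 and Mmp12. CD172a+ cDCs labelled Zeb2-deficient differed from control CD172a+ cDCs by -0.26 (95% interval -0.64 to 0.12), with -0.26 within the first array set and -0.27 within the second.

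Adgre4 read 5.64, 5.83, 7.12 and 6.61 in CD172a+ cDCs labelled Zeb2-deficient, 3.95, 4.35 and 4.33 in control CD24+ cDCs, and 7.54, 7.50, 7.11 and 7.83 in control CD172a+ cDCs. Replicate 3 of the arrays labelled Zeb2-deficient reached the lowest control CD172a+ array, and the others lay below all 4. The means were 6.30 ± 0.69 (SD, n = 4) in the CD172a+ cDCs labelled Zeb2-deficient, 4.21 ± 0.23 (SD, n = 3) in control CD24+ cDCs and 7.49 ± 0.29 (SD, n = 4) in control CD172a+ cDCs. The difference of CD172a+ cDCs labelled Zeb2-deficient from control CD172a+ cDCs was -1.20 (SE 0.294, 95% interval -1.84 to -0.55), and was not called. It was -1.79 within the first set and -0.61 within the second, and the second set minus the first was 1.13 on the arrays labelled Zeb2-deficient and -0.05 on the control CD172a+ arrays. CD24+ minus CD172a+ control cDCs gave -3.28 (SE 0.317), or 9.74-fold lower.

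Adgre5 read 10.96, 10.99, 10.52 and 10.94 in CD172a+ cDCs labelled Zeb2-deficient, 11.17, 10.94 and 10.92 in control CD24+ cDCs, and 11.01, 10.94, 10.96 and 10.41 in control CD172a+ cDCs. All groups overlapped. Its difference was 0.02 (95% interval -0.32 to 0.36) for CD172a+ cDCs labelled Zeb2-deficient over control CD172a+ cDCs and 0.18 (95% interval -0.19 to 0.54) for CD24+ over CD172a+ control cDCs. Among 17 further measured genes of adhesion receptors and CD97 ligands, none was called by genotype in limma, with 1 of 17 at an unadjusted p below 0.05 (3.88% of all genes). Adgrl3, a latrophilin, read -0.57 there (adjusted p = 0.998). It was the 1 gene of the list that fell in CD24+ cDCs, where 3.16% of all genes were called lower. It fell by 2.75 (5.49 ± 0.36, n = 3, in control CD24+ cDCs and 8.24 ± 0.49, n = 4, in control CD172a+ cDCs, adjusted p = 6.6e-05). Cd55, the CD97 ligand, differed by 0.44 by genotype (adjusted p = 0.998).

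Ms4a4c belongs to a cluster of membrane-spanning genes on chromosome 19 that includes the B cell gene Ms4a1 (CD20). It read 10.33, 10.33, 9.24 and 9.55 in CD172a+ cDCs labelled Zeb2-deficient, 5.97, 5.11 and 5.60 in control CD24+ cDCs, and 10.15, 9.92, 9.08 and 9.17 in control CD172a+ cDCs. The CD172a+ groups overlapped, and in both the first set read higher than the second. The second set minus the first was -0.93 in CD172a+ cDCs labelled Zeb2-deficient, -0.62 in control CD24+ cDCs and -0.91 in control CD172a+ cDCs. The difference by genotype was 0.28 (95% interval -0.43 to 0.99). CD24+ minus CD172a+ control cDCs gave -4.02 (SE 0.347), or 16.2-fold lower.

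Of 15 other genes of the Ms4a cluster, 0 rose and 3 fell in control CD24+ against control CD172a+ cDCs. Of all genes, 3.25% were called higher and 3.16% lower there. Ms4a6c fell by 2.31 (adjusted p = 0.000106), Ms4a6b fell by 2.37 (adjusted p = 0.0034) and Ms4a4d fell by 0.53 (adjusted p = 0.028), the last near background at 3.75 ± 0.19 in control CD24+ cDCs (n = 3) and 4.28 ± 0.12 in control CD172a+ cDCs (n = 4). By genotype none was called, with 1 of 15 at an unadjusted p below 0.05 (3.88% of all genes). That gene was Ms4a1, which read 8.64, 8.65, 7.79 and 7.79 in CD172a+ cDCs labelled Zeb2-deficient, against 6.68, 6.57, 5.44 and 6.10 in control CD172a+ cDCs. The groups did not overlap, and the difference was 2.02 (SE 0.337, adjusted p = 0.135), with 2.02 within each array set and an adjusted p of 0.00201 with the array set as a block. The mean of 6 B cell markers, which include Ms4a1, ranged from 5.41 to 5.95 in CD172a+ cDCs labelled Zeb2-deficient and from 4.77 to 5.23 in control CD172a+ cDCs, with 3 of 6 and 2 of 6 above the overall median. The markers did not move alike: the median of their differences was 0.02, 3 of 6 were negative, and 1 was called, Fcer2a (the low-affinity IgE receptor CD23), which rose by 2.05 (6.48 ± 0.21 in CD172a+ cDCs labelled Zeb2-deficient and 4.43 ± 0.06 in control CD172a+ cDCs, SD, n = 4 each; adjusted p = 4.74e-05). The part of B cells in the Ms4a1 value was not tested.

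Pla2g7 encodes the secreted platelet-activating factor acetylhydrolase, which breaks down platelet-activating factor and oxidised phospholipids. It read 7.31, 7.17, 7.83 and 7.87 in CD172a+ cDCs labelled Zeb2-deficient, 5.36, 5.59 and 5.61 in control CD24+ cDCs, and 8.03, 8.05, 8.41 and 8.32 in control CD172a+ cDCs. No array of one group overlapped with another group. The means were 7.54 ± 0.36 (SD, n = 4) in the CD172a+ cDCs labelled Zeb2-deficient, 5.52 ± 0.14 (SD, n = 3) in control CD24+ cDCs and 8.20 ± 0.19 (SD, n = 4) in control CD172a+ cDCs. The difference of CD172a+ cDCs labelled Zeb2-deficient from control CD172a+ cDCs was -0.66 (SE 0.169, 95% interval -1.03 to -0.29), at -0.80 within the first set and -0.52 within the second. It was not called over all arrays and was called with the array set as a block. CD24+ minus CD172a+ control cDCs gave -2.68 (SE 0.182), or 6.42-fold lower.

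Of 10 other genes of platelet-activating factor metabolism, none was called by genotype in limma, with 1 of 10 at an unadjusted p below 0.05 (3.88% of all genes): the receptor gene Ptafr, at -0.64 (adjusted p = 0.998). In control CD24+ against control CD172a+ cDCs 1 rose and 2 fell, where 3.25% of all genes were called higher and 3.16% lower. Pafah1b3, a catalytic subunit of the intracellular acetylhydrolase, rose by 1.38 (adjusted p = 0.00125). Pla2g4a, the cytosolic phospholipase A2 that releases arachidonic acid, fell by 1.58 (adjusted p = 0.000305), and Ptafr fell by 0.78 (adjusted p = 0.0482).

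Mmp12 encodes macrophage elastase, a metalloproteinase. It read 9.30, 9.38, 9.42 and 9.50 in CD172a+ cDCs labelled Zeb2-deficient, 5.27, 4.98 and 5.36 in control CD24+ cDCs, and 9.26, 9.87, 9.34 and 9.71 in control CD172a+ cDCs. The CD172a+ groups overlapped, and the CD24+ arrays lay far below both. CD24+ minus CD172a+ control cDCs gave -4.34 (SE 0.155), or 20.3-fold lower. By genotype the difference was -0.15 (95% interval -0.46 to 0.17). Of 22 further metalloproteinases and their inhibitors, 0 were called by genotype in limma, with 0 of 22 at an unadjusted p below 0.05. In CD24+ cDCs 1 fell, where 3.16% of all genes were called lower. That gene was Mmp9, a gelatinase, which fell by 0.93 (4.36 ± 0.11, n = 3, in control CD24+ cDCs and 5.29 ± 0.44, n = 4, in control CD172a+ cDCs, adjusted p = 0.017). Both means lay below the overall median, and Mmp9 was also 1 of the neutrophil markers. Mmp14, a membrane-bound metalloproteinase, differed by -1.09 (adjusted p = 0.0593).

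**Figure D3:**
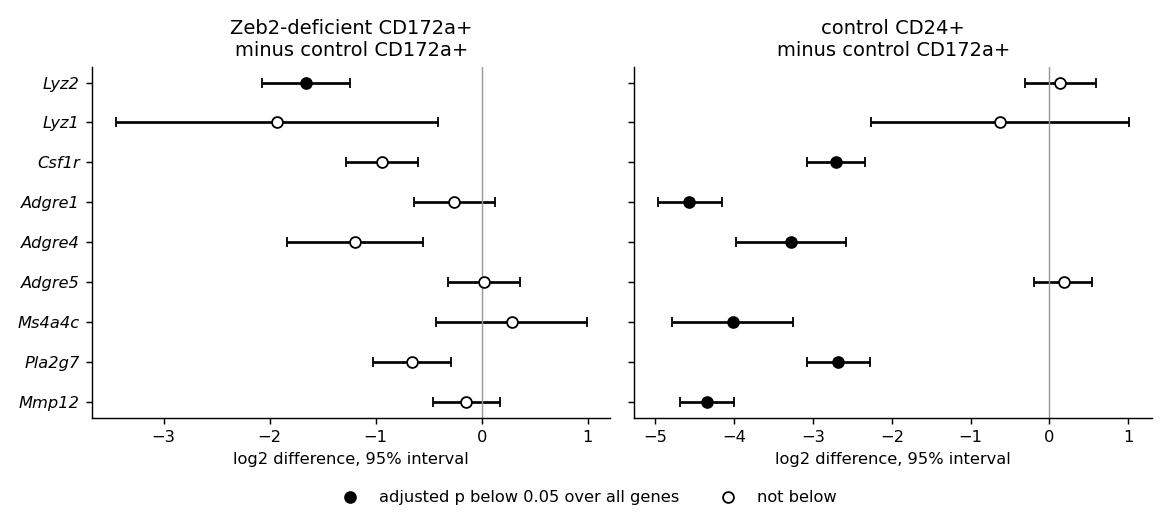
Log2 differences of the 9 genes with 95% intervals, for CD172a+ cDCs labelled Zeb2-deficient minus control CD172a+ cDCs (left) and control CD24+ minus control CD172a+ cDCs (right); filled points had an adjusted p below 0.05 over all genes. Lyz2 is filled on the left at -1.66 and lies at 0.14 on the right, where 6 other genes are filled between -4.57 and -2.68.

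The further lysozyme-like genes, mostly of testis in mouse, gave no called gene among 7 measured in either comparison with control CD172a+ cDCs (limma), with 0 of 7 at an unadjusted p below 0.05 in each. Lyg2, the one with the smallest p by genotype, differed by -0.17 (adjusted p = 0.998).

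The size of the genotype difference was also compared between the array sets. A change of that difference was called for 0 of the 9 members in limma, and for 0 of all genes. At an unadjusted p below 0.05 there were 3 members (Lyz1, Csf1r and Adgre4), where 6.31% of all genes lay. The members were listed with their differences within these sets known, so this count is a description and no test of them. For Lyz1 the difference was 1.95 more negative in the second set (change -1.95, SE 0.315), and for Csf1r and Adgre4 it was less negative there (changes 0.58, SE 0.201, and 1.18, SE 0.337). Adgre1 and Ms4a4c gave nearly the same difference in both sets.

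**Figure D4:**
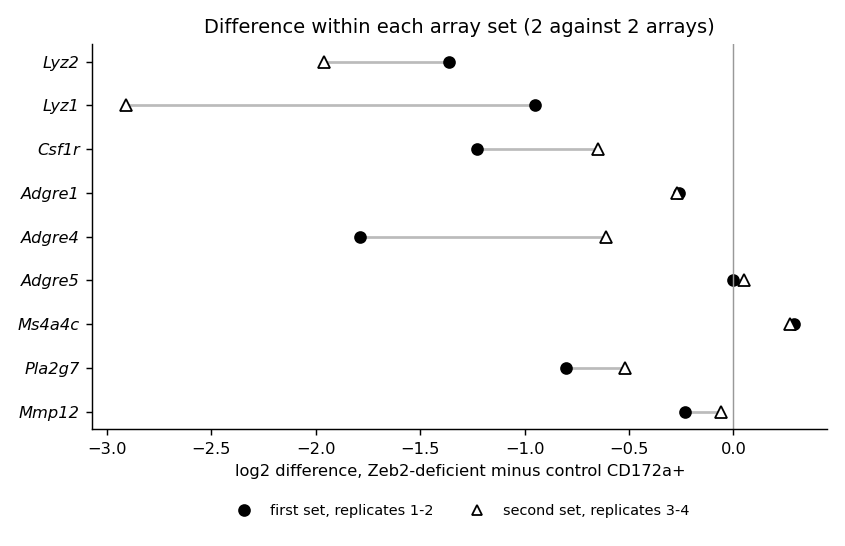
Log2 difference of CD172a+ cDCs labelled Zeb2-deficient minus control CD172a+ cDCs within the first array set (filled circles) and the second (open triangles), 2 arrays against 2 in each. Lyz1 has the widest gap, with -0.95 and -2.91, while Adgre1, Adgre5 and Ms4a4c have both points together.

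Other genes known from monocytes were read as a list of 38 measured genes. By genotype 0 of 38 were called in limma, with 7 of 38 at an unadjusted p below 0.05, where 3.88% of all genes lay, and a median difference of -0.07, against 0.0056 over all genes. Csf3r, the G-CSF receptor, differed by 0.60 (6.43 ± 0.20 in CD172a+ cDCs labelled Zeb2-deficient and 5.83 ± 0.11 in control CD172a+ cDCs, SD, n = 4 each; adjusted p = 0.244). Ccr2, the chemokine receptor that brings monocytes out of the bone marrow, differed by -1.23 (5.14 ± 0.38 in CD172a+ cDCs labelled Zeb2-deficient and 6.36 ± 0.40 in control CD172a+ cDCs, SD, n = 4 each; adjusted p = 0.637). Mpeg1, which encodes the pore-forming protein perforin-2 of macrophages, differed by 1.01 (adjusted p = 0.959).

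In control CD24+ against control CD172a+ cDCs, 5 of the 38 rose and 12 fell, where 3.25% of all genes were called higher and 3.16% lower. The median difference of the list was -0.28, against -0.02 over all genes. Cd36, a scavenger receptor, rose by 4.96 (10.19 ± 0.18, n = 3, in control CD24+ cDCs and 5.23 ± 0.46, n = 4, in control CD172a+ cDCs; adjusted p = 8.24e-07). S100a4, a calcium-binding protein, fell by 3.33 (adjusted p = 1.11e-06), and Ifitm6, of the interferon-induced transmembrane family, fell by 2.88 (adjusted p = 1.87e-05). The others that rose were Mpeg1, Clec12a, Lgals3 and Psap, and the others that fell were S100a6, Ccl9, Gpr141, Ace, Ifitm3, Fcgr4, Klf4, Pou2f2, Csf3r and Spn. Genes known from monocytes thus moved in both directions between the subsets, unlike the 6 called members, which all fell; the members were listed with their direction known. In the same comparison the medians of the smaller lists were -0.18 for the CSF1R axis, -0.26 for the Ms4a cluster, -0.09 for platelet-activating factor metabolism, -0.04 for the metalloproteinases and their inhibitors, -0.03 for the lysozyme-like genes and -0.02 for the further adhesion receptors and CD97 ligands. By genotype they were -0.03, 0.01, -0.06, -0.03, 0.01 and 0.03 in that order.

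**Figure D5:**
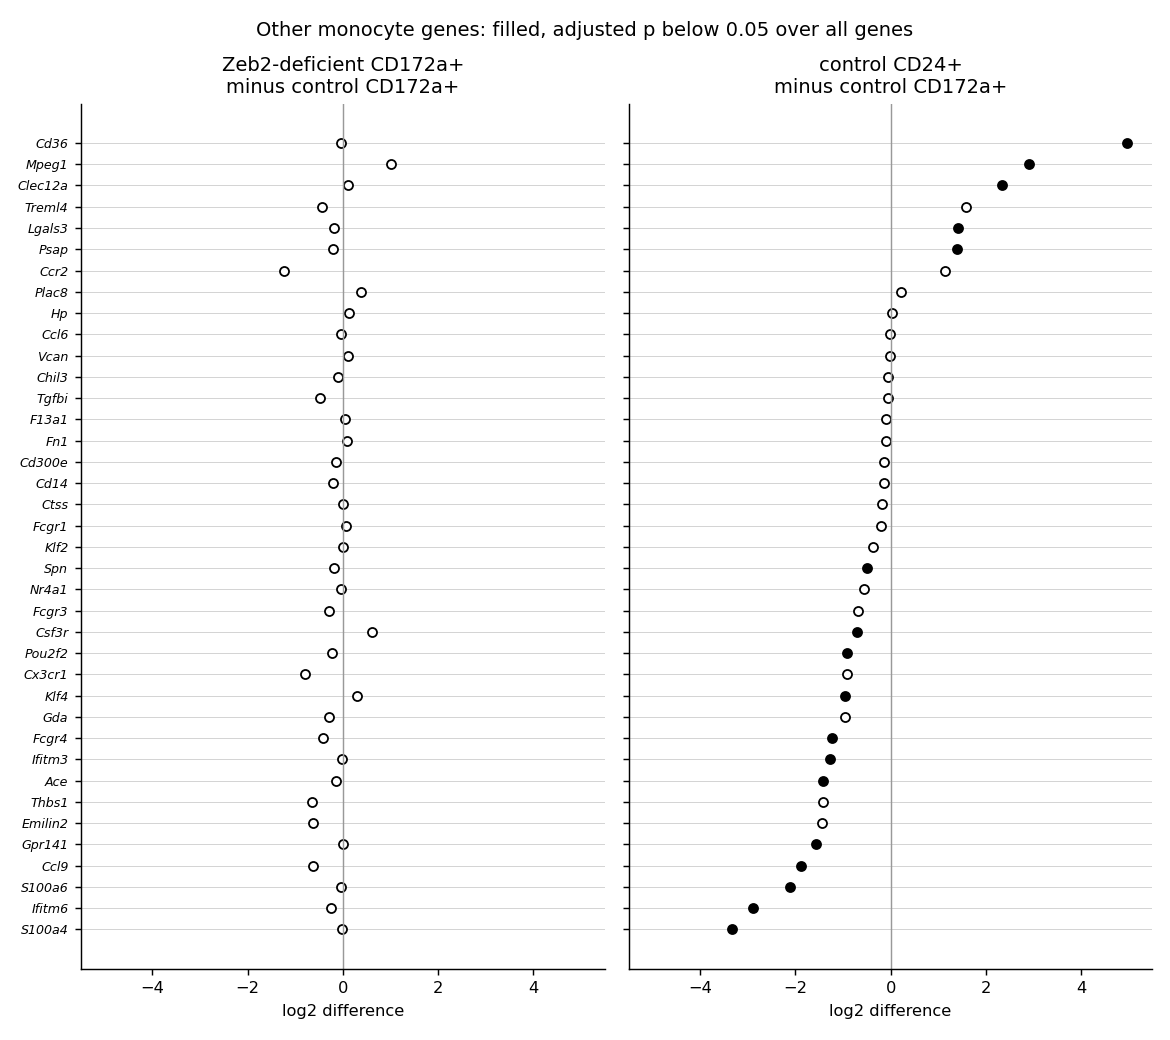
Log2 differences of 38 other monocyte genes for CD172a+ cDCs labelled Zeb2-deficient minus control CD172a+ cDCs (left) and control CD24+ minus control CD172a+ cDCs (right), in the order of the right panel; filled points had an adjusted p below 0.05 over all genes. No point is filled on the left, and on the right 5 are filled above 0 and 12 below it.

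For each member, the genes with the most similar values were ranked by Pearson's r over the 11 arrays among 17029 genes. These are descriptions, since the arrays share groups and array sets. For Lyz2 they were Runx1 (r = 0.926), Zfp408 (0.885) and Hmgb2 (0.884), and its r with Lyz1 was 0.588. For Csf1r they were Plk2 (0.982) and the members Pla2g7 (0.977) and Adgre4 (0.974), while its r with Lyz2 was -0.182. For Adgre4 they were Csf1r (0.974), Spn (0.973) and Pla2g7 (0.968), Spn encoding the sialoglycoprotein CD43. For Pla2g7 they were Plxnd1 (0.984), Dgkd (0.979) and Csf1r (0.977). Csf1r and Pla2g7 were thus each among the genes most like the other, as were Csf1r and Adgre4, while Adgre4 was not among the 3 most like Pla2g7. Adgre1 was most like Sirpa (0.995), which encodes CD172a itself, Siglecg (0.994) and Clec4a1 (0.992). Ms4a4c was most like Mycbp2 (0.996), Cybb (0.995) and S100a6 (0.995), and Mmp12 most like Dscam (0.995), Clec4b1 (0.993) and Scel (0.992). Lyz1 was most like Spata32 (0.930), Mt2 (0.914) and Eif4a3l1 (0.899), and Adgre5 most like Exosc2 (0.953), Baz1a (0.950) and Ndufv1 (0.947).

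The promoter windows of the members, from 250 bases before to 50 after the start, were searched for 2 motifs on both strands. CACCTG (reverse complement CAGGTG), the E-box bound by Zeb factors, occurred in 0 of 7 member windows (Mmp12 has 2), against 20.2% of 32851 windows of all genes. GAGGAA (reverse complement TTCCTC), which holds the core bound by PU.1, occurred in 3 of 7 (42.9%), those of Mmp12, Adgre4 and Ms4a4c, against 28.3% of all windows. A match is a description and no site. The 250 bases before the start are shown for Ms4a4c and for the Mmp12 window with the motif, 2 of the members lower in CD24+ cDCs, at chr9:7344147-7344396 (Mmp12) and chr19:11407411-11407660 (Ms4a4c) of GRCm38.p6, both on the plus strand, with the motif in capitals.
Mmp12: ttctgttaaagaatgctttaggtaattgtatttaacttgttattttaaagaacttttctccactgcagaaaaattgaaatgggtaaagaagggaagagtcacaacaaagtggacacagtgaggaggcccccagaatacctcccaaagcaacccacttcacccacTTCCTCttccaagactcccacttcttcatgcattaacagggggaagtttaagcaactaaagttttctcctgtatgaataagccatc
Ms4a4c: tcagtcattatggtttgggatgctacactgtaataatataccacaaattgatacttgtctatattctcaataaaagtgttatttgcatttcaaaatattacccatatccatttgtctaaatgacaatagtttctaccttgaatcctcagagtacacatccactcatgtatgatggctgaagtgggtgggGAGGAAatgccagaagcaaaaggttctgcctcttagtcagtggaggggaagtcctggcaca
The motif begins 86 bases before the start in Mmp12 and 61 bases before it in Ms4a4c.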

How the data were processed

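The deposited table holds log2 expression for each probe set. Per the submitters' processing notes it was made with RMA, a method that corrects background, brings arrays to common quantiles and summarises probes. The sources used here give no software version or genome build. Per the labels' protocols, RNA came from an RNAqueous-Micro kit and targets from the Ovation PicoSL kit. The number of arrays limits the precision. No pair of arrays shared identical values at over 5.20% of probe sets.

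Gene names came from the platform annotation. It gave 1 gene symbol for 21789 of 30177 probe sets, several for 1621 and none for 6767, and 21698 matched RefSeq by Entrez identifier. For each of 19938 genes the probe set of highest mean was used, a choice that arose for 999 genes. The groups were compared in limma 3.58.1 (R 4.3.3) by a single model over all 11 arrays (8 residual degrees of freedom), with Benjamini-Hochberg adjustment over all genes and a two-sided threshold of 0.05. The fit was tested on simulated data. Tables and figures were made in Python 3.11.15 with pandas 2.3.3, numpy 2.4.6 and matplotlib 3.10.9.

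The members and the gene lists were chosen with earlier results of these data known. The text names every member, Zeb2, of each list up to 3 genes with the smallest p in the comparison by genotype and up to 3 in the comparison of control subsets, and the 3 genes most like each member; other names were chosen after their values were seen. Some genes of these lists were not analysed here, and counts cover the measured genes. T cell, NK cell and plasmacytoid DC markers were also read: their means over the list were 5.37 to 5.48, 4.23 to 4.72 and 6.68 to 6.81 in CD172a+ cDCs labelled Zeb2-deficient, 5.06 to 5.34, 4.25 to 4.40 and 6.54 to 6.64 in control CD24+ cDCs, and 5.38 to 5.67, 4.08 to 4.51 and 6.22 to 6.49 in control CD172a+ cDCs. The plasmacytoid DC means did not overlap between the CD172a+ groups. Of its 7 measured markers, 1 was called higher by genotype (Cox6a2), where 0.0401% of all genes were, and 3 had a negative difference.

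Promoters were aligned globally with a score of 1 for a match, -1 for a mismatch, -5 for the first base of a gap and -1 for each further base. Promoter entries of Csf1r, Adgre1 and Adgre5 were not used here.

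Replicate numbers were checked as a pairing. After subtraction of group means, same-numbered arrays labelled Zeb2-deficient and control CD172a+ arrays had a correlation across genes of 0.442 to 0.68 over 4 pairs. All exceeded 0.1, the threshold set for taking the numbers as a pairing, which the labels do not state. Control CD24+ arrays gave -0.361 to 0.592 with same-numbered arrays labelled Zeb2-deficient and -0.445 to 0.506 with same-numbered control CD172a+ arrays, over 3 pairs each, so the numbers were not taken to pair those. Arrays labelled Zeb2-deficient and control CD172a+ arrays of unlike number gave 0.496 to 0.699 within one array set and -0.692 to -0.404 across the sets. The correlation thus followed the array set, and same-numbered arrays were no more alike than others of their set. These values therefore do not show a pairing by number. Alternatives were array set and replicate number as blocks, each array set alone, other representative values, all probe sets, dim genes left out, another variance prior, repeated quantile normalization and each array left out in turn.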

Additional observations from a re-analysis of the deposited data

Results flagged for a closer look

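In groups of 4 arrays, a single array stood apart by Dixon's ratio of gap to range (critical value 0.829) in 3 cases, with 18 groups of the 9 genes and those of Zeb2 tested; chance gives such a result in about 1 of 20 groups. Adgre5 was lowest at 10.52 on replicate 3 of CD172a+ cDCs labelled Zeb2-deficient. Adgre5 was also lowest at 10.41 on replicate 4 of control CD172a+ cDCs. Zeb2 was highest at 8.61 on replicate 4 of control CD172a+ cDCs. Both arrays belong to the second array set.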

How the results depend on the processing

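The members called lower in CD172a+ cDCs labelled Zeb2-deficient than in control CD172a+ cDCs were 1 over all arrays (0.0502% of all genes called). With the array set as a block they were 3 (0.145% of all genes). Fewer arrays were fitted within each set, where 0 were called in the first (0 of all genes) and 1 in the second (0.0351% of all genes). The member called in the second set was Lyz1, and Lyz2 was called in neither set alone. Leaving out 1 array at a time gave 1 to 2. With replicate number as a block, 1 member was called in this comparison, where 0.0552% of all genes were. The same fit gave 6 in control CD24+ against control CD172a+ cDCs and 7 between CD172a+ cDCs labelled Zeb2-deficient and control CD24+ cDCs, where the arrays share only a number. No count of members changed, while the shares of all genes called in those comparisons were 9.24% and 10.3%, against 6.41% and 7.17% without the block. Of the 123 genes in the 7 lists, 0 were called by genotype in limma, with 12 of 123 at an unadjusted p below 0.05; the array-set block and repeated quantile normalization each gave 1, Ms4a1. In control CD24+ against control CD172a+ cDCs, 28 of them were called over all arrays, 49 under the array-set block and 23 to 28 with 1 array left out. Of all genes, 6.41% were called there over all arrays and 15.4% under the array-set block; the cause was not tested. The members called there stayed at 6, and those between CD172a+ cDCs labelled Zeb2-deficient and control CD24+ cDCs at 7, with any array left out. No difference of a member called over all arrays changed its sign under these alternatives. Of differences not called over all arrays, that of Lyz1 in control CD24+ against control CD172a+ cDCs did so between the array sets, with 1 CD24+ array in the first. The small differences of Adgre5 by genotype (0.02 over all arrays) and of Lyz2 between the control subsets (0.14) also changed sign in some fits. Values near or below the median of 5.51 limit the folds of Adgre1, Adgre4, Mmp12, Ms4a4c, Pla2g7 and Csf1r in CD24+ cDCs.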
